A study of Homo sapiens with 2 samples.

Results

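Transforming growth factor beta (TGF-beta) is secreted in a latent form, in which the folded propeptide still cages the ligand and is usually bound to a latent TGF-beta binding protein (LTBP) that places the complex in the extracellular matrix. After release, the ligand joins a type II receptor to a type I receptor, which phosphorylates SMAD2 and SMAD3. With SMAD4 these enter the nucleus and regulate genes, among them genes whose products damp the same pathway. In thyroid follicular cells the pathway is known for restraint of growth and of iodide uptake, and in carcinomas for its link to matrix production and invasive behaviour.

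The 10 genes described here, of 19362 in the table, are TGF-beta ligands (TGFB1, TGFB2), latent binding proteins (LTBP1, LTBP2, LTBP3), receptors (TGFBR1, TGFBR2) and direct feedback targets (SMAD7, SKIL, PMEPA1). They were taken by name from that table and by no rule on their values, though with earlier results of these data known. All 10 were found once each. The cells were FTC-133, an established human line derived from a follicular thyroid carcinoma. One library came from cells given a control siRNA and one from cells given siRNA against CHI3L1, the gene of the secreted chitin-binding glycoprotein YKL-40. Both arms were transfected cells of the same line, with no untransfected library. Neither the number of cultures nor the time after transfection is given in these sources.

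The table held 15837449 reads for the control siRNA library and 19467345 for the CHI3L1 siRNA library, in CPM. This unit is the reads of a gene scaled by a factor for each library, and the values summed to 1001500 and 998507 CPM. Each group has 1 library, so nothing here has a check between replicates, no p-value is given, and each value compares these 2 libraries and not the conditions. Log2 folds are of CHI3L1 siRNA over control siRNA with 1 CPM added to each value, which understates differences of low genes. A gene counts as higher or lower at 1.5-fold, a log2 fold of 0.58. Ratios in CPM carry 95% exact (Clopper-Pearson) intervals that cover counting error only. CHI3L1 itself stood at 140 CPM with control siRNA and 48.6 CPM with CHI3L1 siRNA, for a ratio of 0.347 (0.321 to 0.374).

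Among markers of the labelled cell type, the thyroid transcription factors PAX8 (82.8 CPM with control siRNA and 71.2 CPM with CHI3L1 siRNA) and NKX2-1 (88.6 and 112 CPM) were present, whereas TG, the gene of thyroglobulin, was at 0.632 and 0.718 CPM. Of 8 thyroid markers, 6 were in the table, with a summed level of 184 and 198 CPM, nearly all from PAX8 and NKX2-1. The thyroid transcription factor genes FOXE1 (1 and 19 reads) and HHEX (3.16 and 3.49 CPM) were low, as was the receptor gene TSHR (8.73 and 9.23 CPM). Epithelial markers (5 of 5) summed to 86.9 and 86.4 CPM, nearly all from KRT8 (51.8 and 55.9 CPM) and KRT18 (31.6 and 24.7 CPM). The others were low, with 32 and 78 reads for EPCAM, 17 and 31 for CDH1, and 8 and 5 for KRT19. EPCAM was past 1.5-fold higher, with a log2 fold of 0.73. Endothelial markers (3 of 4) summed to 11.3 and 9.75 CPM. Immune markers (2 of 4) summed to 1.20 and 0.616 CPM. Fibroblast markers (5 of 5) summed to 619 and 795 CPM, nearly all from THY1 (558 and 745 CPM) and LUM, while the fibroblast receptor gene PDGFRA had 9 and 2 reads. Their part in the results was not tested.

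Of the 10 genes, 2 were at least 1.5-fold higher with CHI3L1 siRNA, LTBP1 and LTBP2, and 0 were lower. Over the 14815 tested genes, those whose mean reached 1 CPM, 7.73% were higher and 13.4% lower by the same rule. In bulk RNA, fewer cells of a type and less RNA per cell cannot be told apart. The median log2 fold of the 10 genes was 0.26, against 0.01 over all tested genes. Transcripts of 9 of the 10 genes are longer than 4000 nt, a class that was itself higher in the CHI3L1 siRNA library. The median log2 fold of 4627 tested coding genes of that length was 0.25, with 14.4% higher and 3.98% lower. The median of the 10 genes is thus close to that of long transcripts, with LTBP1 (1.43) far above it and SKIL (−0.50) below it.

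**Figure D1:**
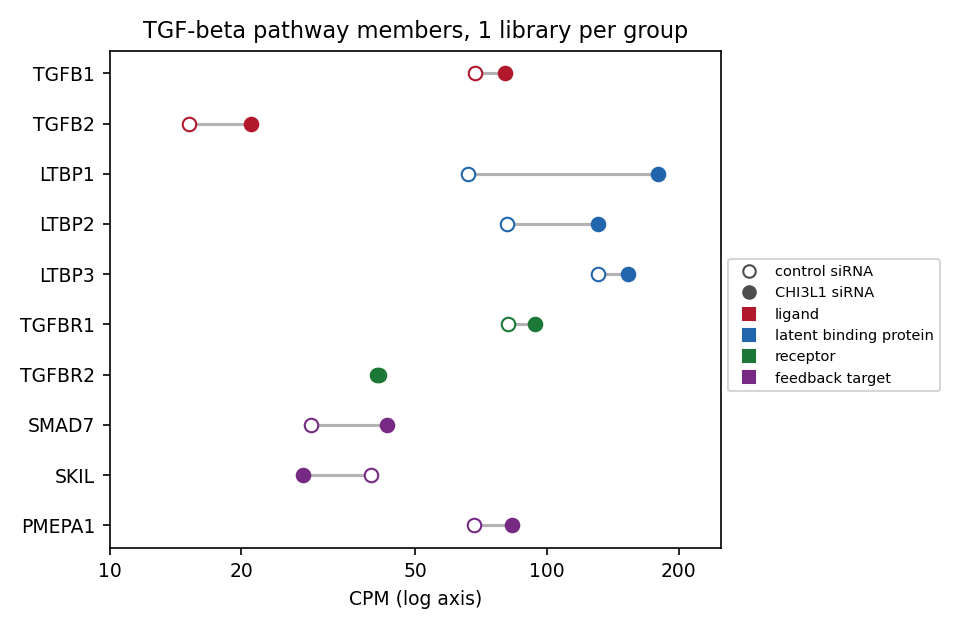
Level of each gene in CPM (log axis) in the control siRNA library (open circles) and the CHI3L1 siRNA library (filled circles), coloured by role, with 1 library per group and no error bars. LTBP1 has the longest line, from 66.0 to 179 CPM. SKIL is lower with CHI3L1 siRNA (39.5 to 27.6 CPM), and the circles of TGFBR2 coincide.

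Latent binding proteins hold the pair of genes past 1.5-fold, so the sequence before an LTBP1 start is shown first. It stands with those of the 3 feedback targets, whose log2 folds differed in sign. Each is the stretch upstream of a RefSeq transcript start (GRCh38.p14), ended before any annotated exon of the gene. Among the starts of a gene, the one whose window held the fewest bases of its own exons was taken. The stretches of LTBP1, SMAD7 and PMEPA1 lie inside the annotated gene, after an earlier start, so they need not be the main promoters. Capitals mark the letters CAGAC on either strand (GTCTG when read on the other), the core of the SMAD-binding element. The stretches run over chr2:33134119-33134368 on the plus strand for LTBP1, chr18:48949334-48949583 on the minus strand for SMAD7, chr3:170357465-170357677 on the plus strand for SKIL and chr20:57710016-57710265 on the minus strand for PMEPA1.
LTBP1: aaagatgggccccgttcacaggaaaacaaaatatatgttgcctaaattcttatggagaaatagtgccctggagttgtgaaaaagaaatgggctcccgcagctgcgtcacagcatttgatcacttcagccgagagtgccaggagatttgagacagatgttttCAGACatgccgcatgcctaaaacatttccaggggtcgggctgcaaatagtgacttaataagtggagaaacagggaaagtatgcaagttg
SMAD7: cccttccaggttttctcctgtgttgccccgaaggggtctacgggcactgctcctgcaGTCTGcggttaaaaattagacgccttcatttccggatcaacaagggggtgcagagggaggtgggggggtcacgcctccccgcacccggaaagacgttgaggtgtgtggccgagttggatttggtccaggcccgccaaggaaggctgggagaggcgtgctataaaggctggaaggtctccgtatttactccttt
SKIL: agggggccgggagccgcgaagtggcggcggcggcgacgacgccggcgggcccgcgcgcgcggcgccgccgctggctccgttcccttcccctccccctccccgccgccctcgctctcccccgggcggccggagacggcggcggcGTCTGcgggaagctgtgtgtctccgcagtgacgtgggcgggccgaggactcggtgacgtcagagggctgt
PMEPA1: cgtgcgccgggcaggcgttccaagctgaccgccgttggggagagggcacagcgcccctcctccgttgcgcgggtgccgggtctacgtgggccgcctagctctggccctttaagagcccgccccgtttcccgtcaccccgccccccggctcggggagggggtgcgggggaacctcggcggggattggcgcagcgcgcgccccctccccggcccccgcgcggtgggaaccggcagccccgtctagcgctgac

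The stretches of LTBP1, SMAD7 and SKIL hold 1 match each and that of PMEPA1 holds 0. Other starts differ, since 2 of 4 windows of PMEPA1, 2 of 3 of SMAD7, 3 of 3 of LTBP1 and the 1 window of SKIL hold the letters. The 1 window of LTBP2, the other gene past 1.5-fold, does not hold them. Nor do those of LTBP3 (2 windows), TGFB1 (1 window) and TGFBR2 (2 windows). The 1 window of TGFB2 and 4 of 8 windows of TGFBR1 do. The letters CAGAC or GTCTG were present in 38% of 34943 distinct windows of 250 bases upstream of RefSeq starts, so a match is common. The palindrome GTCTAGAC, which joins a pair of GTCT/AGAC boxes, was in 0.183% of windows and in none of the windows of the 10 genes. Composition of the stretches shown differed, with 45.2% GC for LTBP1, 58.4% for SMAD7, 79.8% for SKIL and 76.8% for PMEPA1. All 10 genes had at least 1 window. LTBP1 has 3 RefSeq starts in them, at 32946953, 33134369 and 33134596, and counts per gene do not separate them.

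The ligand genes were both somewhat higher with CHI3L1 siRNA, below 1.5-fold. TGFB1 (chromosome 19, 41301587 to 41353911, minus strand) encodes the ligand most widely made by epithelial tumours. It stood at 68.3 CPM (1080 reads) with control siRNA and 80.3 CPM (1565 reads) with CHI3L1 siRNA, for a ratio of 1.18 (1.09 to 1.27). Of its 3238 annotated exon bases, 215 (6.64%) are also exon of HNRNPUL1 on the opposite strand, which stood at 268 and 320 CPM. No source used here gives the strand setting of the counting, so reads from that stretch cannot be assigned.

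TGFB2 (chromosome 1, 218346235 to 218444619, plus strand) encodes a ligand that depends on the co-receptor betaglycan for binding to the type II receptor. It stood at 15.2 CPM (240 reads) and 21.1 CPM (411 reads), for a ratio of 1.39 (1.18 to 1.64), with an interval that reaches past 1.5-fold. The third ligand gene, TGFB3, stood at 14.5 and 17.6 CPM, for a ratio of 1.21 (1.02 to 1.44). All 3 ligand genes were thus higher in the CHI3L1 siRNA library, by less than 1.5-fold each. TGFB1 made up 69.7% (67.3 to 72.0) of the reads of the 3 ligand genes with control siRNA and 67.5% (65.5 to 69.4) with CHI3L1 siRNA. These intervals overlap. Per kilobase of annotated transcript, the level of TGFB1 was 8.08 times that of TGFB2 with control siRNA and 6.83 times with CHI3L1 siRNA.

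The latent binding protein genes were all higher with CHI3L1 siRNA, to unequal extents. LTBP1 (chromosome 2, 32946972 to 33399509, plus strand), whose product binds the latent complex by a disulfide bond and carries it to fibrillin and fibronectin fibres, stood at 66.0 CPM (1044 reads) with control siRNA and 179 CPM (3495 reads) with CHI3L1 siRNA. Its ratio was 2.72 (2.53 to 2.91) and its log2 fold of 1.43 exceeded those of 99.9% of tested genes. LTBP2 (chromosome 14, 74498170 to 74612378, minus strand) encodes a fibrillin-binding member of the family that does not bind the latent ligand. It stood at 81.1 CPM (1283 reads) and 131 CPM (2553 reads), for a ratio of 1.61 (1.51 to 1.73). LTBP3 (chromosome 11, 65538805 to 65558930, minus strand), whose product binds latent TGF-beta, stood at 131 CPM (2068 reads) and 153 CPM (2986 reads), for a ratio of 1.17 (1.11 to 1.24).

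LTBP4, the remaining family gene, stood at 152 and 164 CPM, for a ratio of 1.08 (1.02 to 1.13). The counting intervals of LTBP1 and LTBP2 overlap neither each other nor those of LTBP3 and LTBP4. LTBP1 supplied 15.3% (14.5 to 16.2) of all LTBP reads with control siRNA and 28.6% (27.8 to 29.4) with CHI3L1 siRNA. LTBP4 had the largest share with control siRNA, 35.4% (34.3 to 36.5), and 26.1% (25.3 to 26.9) with CHI3L1 siRNA. LTBP3 went from 30.4% to 24.4% and LTBP2 from 18.9% to 20.9%. The mix of LTBP transcripts was therefore led by LTBP4 in the control siRNA library and by LTBP1 in the CHI3L1 siRNA library, in reads that are not adjusted for length. Per length, LTBP1 made up 15.7% and 29.8% of the LTBP level, against 35.6% and 29.2% for LTBP3, so the lead of LTBP1 over LTBP3 is small once length is counted.

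**Figure D2:**
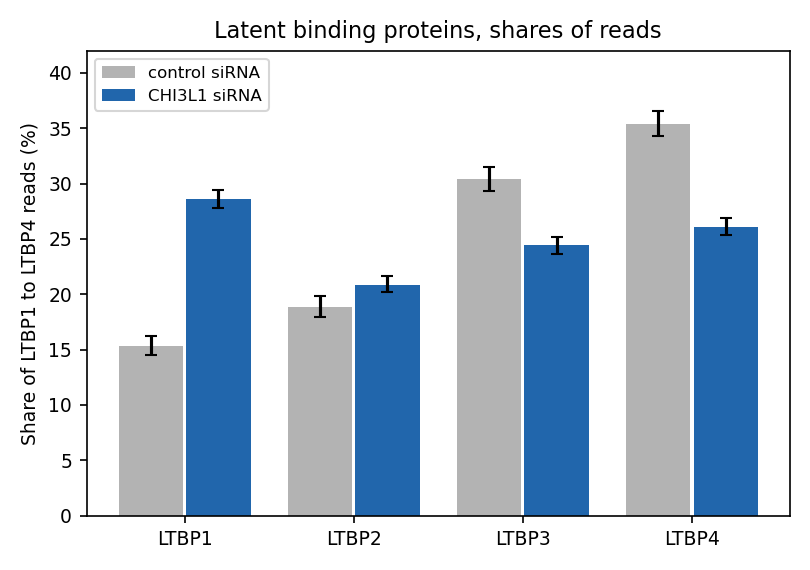
Share (%) of the reads of LTBP1, LTBP2, LTBP3 and LTBP4 taken by each gene in the control siRNA library (grey, 6803 reads in all) and the CHI3L1 siRNA library (blue, 12227 reads). Bars are single libraries and error bars are 95% exact binomial intervals for counting error only, and the bar of LTBP1 goes from 15.3% to 28.6% while those of LTBP3 and LTBP4 are lower.

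The receptor genes lay within 1.5-fold. TGFBR1 (chromosome 9, 99104038 to 99154192, plus strand) encodes the type I receptor kinase that phosphorylates SMAD2 and SMAD3. It stood at 81.3 CPM (1285 reads) with control siRNA and 93.8 CPM (1828 reads) with CHI3L1 siRNA, for a ratio of 1.15 (1.07 to 1.24). TGFBR2 (chromosome 3, 30606502 to 30694142, plus strand) encodes the type II kinase that binds the ligand first. It stood at 41.3 CPM (653 reads) and 40.8 CPM (795 reads), for a ratio of 0.987 (0.889 to 1.10), and its interval holds 1. Per kilobase of transcript, the level of TGFBR1 was 1.40 times that of TGFBR2 with control siRNA and 1.63 times with CHI3L1 siRNA.

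The feedback targets differed among themselves. SMAD7 (chromosome 18, 48919853 to 48952052, minus strand) encodes the inhibitory SMAD that occupies the type I receptor and brings ubiquitin ligases to it. It stood at 28.9 CPM (457 reads) with control siRNA and 43.1 CPM (841 reads) with CHI3L1 siRNA, for a ratio of 1.49 (1.33 to 1.68) and a log2 fold of 0.56, just under the threshold. SKIL (chromosome 3, 170357678 to 170396835, plus strand) encodes SnoN, a corepressor of SMAD complexes. It stood at 39.5 CPM (625 reads) and 27.6 CPM (538 reads), for a ratio of 0.698 (0.621 to 0.785), the lowest of the 10 genes. PMEPA1 (chromosome 20, 57648392 to 57711536, minus strand), whose membrane protein sequesters receptor-activated SMADs, stood at 68.2 CPM (1078 reads) and 83.1 CPM (1621 reads), for a ratio of 1.22 (1.13 to 1.32).

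The intervals of SMAD7 and SKIL lie on opposite sides of 1, and the difference of their log2 folds was 1.06. The 3 feedback targets thus had folds of both signs in these libraries. An antisense gene, NKILA, overlaps exons of PMEPA1 and stood at 5.82 and 6.62 CPM.

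**Figure D3:**
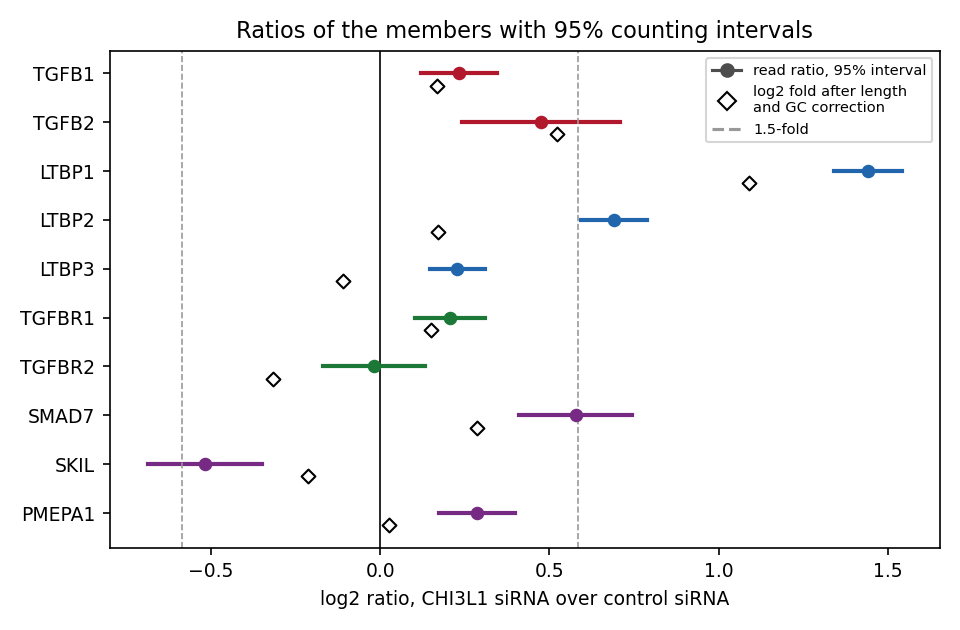
Log2 ratio between the libraries (CHI3L1 siRNA to control siRNA) for each gene, from reads without a pseudocount (filled circles) with 95% counting intervals (lines), and the log2 fold after the length and GC correction (open diamonds). Dashed lines mark 1.5-fold in each direction. The interval of LTBP1 lies wholly beyond the line, that of SKIL lies below 0, and the diamond of LTBP2 sits at 0.17.

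Compared per kilobase of annotated transcript, levels in the control siRNA library ran from 29.4 CPM per kilobase for LTBP3 through 24.7 for TGFB1, 14.1 for PMEPA1, 13.0 for LTBP1 and 12.5 for TGFBR1 to 9.47 for LTBP2. The lower levels were 8.94 for TGFBR2, 6.53 for SMAD7, 5.50 for SKIL and 3.05 for TGFB2. Of the 9 neighbouring pairs in this order, 4 had overlapping Poisson intervals (95%), PMEPA1 with LTBP1, LTBP1 with TGFBR1, LTBP2 with TGFBR2, and SMAD7 with SKIL. In the CHI3L1 siRNA library LTBP1 stood first at 35.2 (34.1 to 36.4), with LTBP3 at 34.5 (33.2 to 35.7), whose interval overlaps. TGFB1 and PMEPA1 (17.2) followed, and TGFB2 (4.24) and SKIL (3.84) stood last, with overlapping intervals. Relative to TGFB1, the level of LTBP1 per kilobase was 0.526 with control siRNA and 1.22 with CHI3L1 siRNA.

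Transcript length moves with the folds of all genes, so each gene is also given after a smooth trend in its length, GC content and coding length was subtracted. LTBP1 then had a log2 fold of 1.09 and was the sole gene of the 10 past 1.5-fold. By that measure 5.74% of coding genes were higher and 7.65% lower. LTBP2, with a transcript of 8567 nt, had 0.17 in place of 0.68, and LTBP3 had −0.11 in place of 0.23, a change of sign. TGFB2 had 0.52 and SMAD7 0.29. TGFB1 (0.17) and TGFBR1 (0.15) moved little, PMEPA1 had 0.03, SKIL −0.21 and TGFBR2 −0.32. The median of the 10 genes was 0.16.

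**Figure D4:**
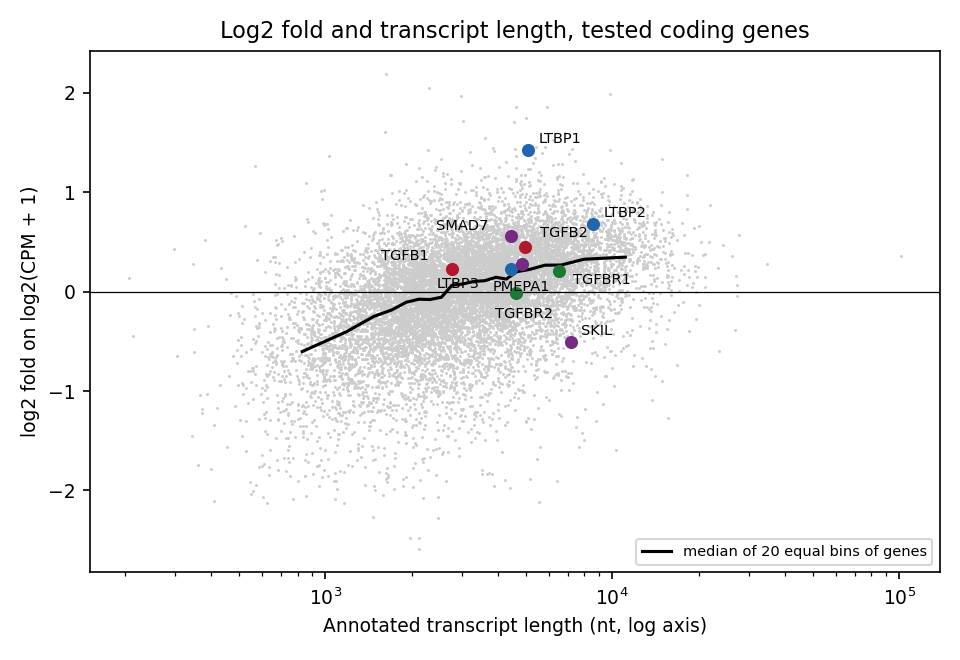
Log2 fold (CHI3L1 siRNA over control siRNA, 1 CPM added) against annotated transcript length (nt, log axis) for tested coding genes (grey points), with the running median in equal bins of genes (black line) and the 10 genes coloured by role as in the plot of levels. The line climbs with length, LTBP1 at 1.43 lies far above it, and SKIL at −0.50 lies below it.

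Other genes of the pathway were grouped in 6 lists, in which 115 distinct genes were tested beside the 10. Of these, 26 were at least 1.5-fold higher and 7 lower, or 18 and 5 after the length and GC correction. The counts before the correction stand beside 7.73% higher and 13.4% lower over all tested genes. Among tested coding genes with transcripts above 4000 nt those shares were 14.4% and 3.98%. The counts after the correction stand beside 5.74% higher and 7.65% lower over coding genes so treated.

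Of 25 tested genes for latency, storage and activation, 9 were higher and 1 lower, with a median log2 fold of 0.50. BGN, the gene of the TGF-beta-binding proteoglycan biglycan, had the highest log2 fold, at 22.6 and 54.1 CPM (1.22). The fibrillin genes FBN1 (454 and 915 CPM) and FBN2 (31.3 and 64.7 CPM), whose products anchor LTBPs, had ratios of 2.02 (1.96 to 2.07) and 2.07 (1.86 to 2.30). FN1, the gene of fibronectin, onto which LTBP1 is laid, had a log2 fold of 1.19. After the correction 3 of the higher genes stayed past 1.5-fold, BGN (1.22), FN1 (0.69) and ITGAV (0.67), as did the lower gene ITGB6 (−0.73), while FBN1 and FBN2 had 0.52 and 0.51.

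Genes of integrins that bind the latent propeptide differed. ITGAV, the common alpha subunit, stood at 290 and 485 CPM, for a ratio of 1.67 (1.62 to 1.73). Its partner ITGB8 stood at 153 and 170 CPM, for a ratio of 1.11 (1.05 to 1.17). The epithelial partner ITGB6 had 34 and 19 reads, for a ratio of 0.453 (0.244 to 0.818). THBS1, the gene of the activator thrombospondin, had a ratio of 1.48 (1.40 to 1.56), and FURIN, the gene of the convertase that cuts the propeptide, 1.35 (1.26 to 1.43). After the correction the log2 folds of THBS1 (0.14), FURIN (0.13) and ITGB8 (0.07) were small.

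Among 14 other receptors and co-receptors, 5 were higher and 0 lower, with a median of 0.43. TGFBR3, the gene of betaglycan, stood at 14.3 CPM with control siRNA and 29.4 CPM with CHI3L1 siRNA, for a ratio of 2.06 (1.76 to 2.41). CD109, whose product binds TGF-beta and lowers signalling, stood at 218 and 473 CPM, for a ratio of 2.17 (2.08 to 2.25). The neuropilin genes NRP1 and NRP2 had log2 folds of 0.66 and 0.74. With the trend subtracted, TGFBR3 (0.67) and CD109 (0.97) stayed past 1.5-fold, and the neuropilins (0.34 and 0.26) did not. Both of these had larger folds than the signalling receptor genes TGFBR1 and TGFBR2.

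Among 13 SMAD genes and partners, 1 was higher and 0 lower, beside 7.73% higher and 13.4% lower over all tested genes. That gene was SMAD9, a carrier of bone morphogenetic protein (BMP) signals, at 19.2 and 34.1 CPM with a log2 fold of 0.80. The TGF-beta carriers SMAD2 (56.2 and 68.1 CPM), SMAD3 (70.9 and 73.8 CPM) and SMAD4 (36.3 and 40.6 CPM) had ratios between 1.04 and 1.21. The coactivator genes EP300 and CREBBP each had a log2 fold of 0.48, and DAB2, the gene of an adaptor, 0.49. After the correction EP300 (−0.06) and CREBBP (−0.07) lay near 0.

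Of 24 genes listed as negative regulators, 2 were higher and 1 lower, with a median of 0.10. Over all tested genes 7.73% were higher and 13.4% lower. The list also holds genes whose products can promote signalling, among them USP15 and RNF111, so its counts are not counts of inhibitors. USP15, the gene of a deubiquitinase that stabilises the type I receptor, stood at 62.5 and 33.0 CPM, for a ratio of 0.527 (0.477 to 0.583), and its log2 fold of −0.90 was −0.93 after the correction. CTDSP2, the gene of a phosphatase, and RNF111, the gene of a ubiquitin ligase that targets SnoN and SMAD7, had log2 folds of 0.61 and 0.59, both just past the threshold, and 0.37 each after the correction. The higher gene after the correction was FKBP1A (0.34 before and 0.75 after), whose product binds the type I receptor and which was chosen after its values were seen. With centring, a pseudocount of 10 CPM, whole intervals or a 2-fold threshold, 0 genes of the list were higher. SKI, the paralog of SKIL, stood at 69.2 and 99.6 CPM, for a ratio of 1.44 (1.34 to 1.55), on the other side of 1 from SKIL. SMAD6, the inhibitory SMAD of BMP signalling, had a ratio of 0.886 (0.780 to 1.01), against 1.49 for SMAD7. LDLRAD4, the paralog of PMEPA1, had 19 and 17 reads. FSTL1, the gene of a secreted follistatin-like protein, had a log2 fold of 0.53.

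Of 30 other genes reported to respond to TGF-beta, 6 were higher and 5 lower, with a median of 0.02 against 0.01 over all tested genes. CCN2, the gene of connective tissue growth factor, stood at 89.9 and 54.0 CPM, for a ratio of 0.601 (0.554 to 0.651). TGFBI, the gene of a secreted matrix adaptor, had a ratio of 0.817 (0.723 to 0.923). The sphingosine kinase gene SPHK1 stood at 77.5 and 37.0 CPM with a log2 fold of −1.05, and PRPSAP1, which overlaps it on the opposite strand, at 51.0 and 49.1 CPM. LOX, COL1A2 and COL1A1 had the highest log2 folds of the list, 1.45, 1.45 and 1.15. After the correction 7 genes of the list were higher and 3 lower, with a median of 0.17 against 0.00281 over all coding genes so treated. CCN2 (−0.76) and SPHK1 (−1.05) kept their directions and stayed past 1.5-fold. So did the higher genes LOX (1.45), COL1A2 (1.02) and COL1A1 (0.72).

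**Figure D5:**
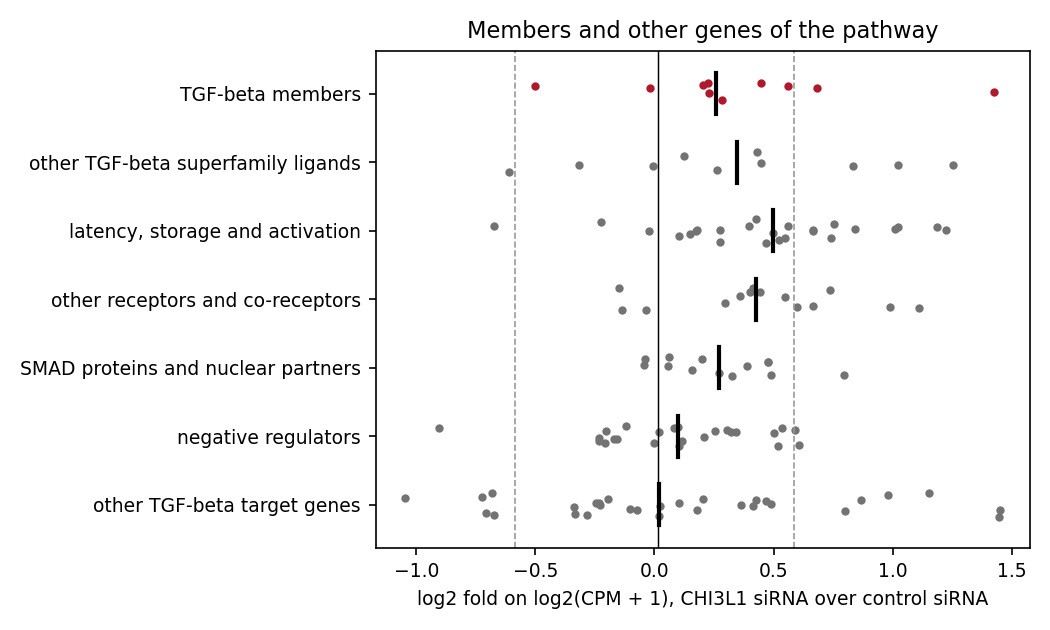
Log2 fold (CHI3L1 siRNA over control siRNA, 1 CPM added) of each tested gene in the 10 genes described (red) and the 6 other lists of the pathway (grey), with thick bars at list medians, a thin line at the median of all tested genes and dashed lines at 1.5-fold. Points are genes of single libraries and are spread vertically at random. The latency list has a median of 0.50 and the target list of 0.02, with points on both sides of 1.5-fold.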

How the data were processed

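RNA from 2 samples of FTC-133 cells, 1 per siRNA group as the labels name them, was sequenced. The authors deposited 1 table of CPM values for 19362 Ensembl genes. FastQC, MultiQC, Trimmomatic, HISAT2, featureCounts and GRCh38 are named, without versions, in the submitters' processing notes. No source used here gives the normalisation tool, annotation or low-count filter. Values equal whole reads with 0.001 read added, multiplied by 1 step for each library (0.0632 and 0.0513 CPM). Subtracting it gave whole reads for 100% of values within 0.01 read. Separately, because of counting error a count of 0 allows an expected count of up to 3 reads (0.190 and 0.154 CPM).

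Symbols were had for 19360 identifiers, and coordinates and transcript lengths came from GENCODE release 29. Promoter sequences are RefSeq's; no protein sequences were used. Python 3.11.15, scipy 1.17.1 and statsmodels 0.14.6 computed folds, intervals and the trend, a spline (5 degrees of freedom per term) fitted to 12520 coding genes outside all lists. Steps were tested on simulated data. No count model was run.

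The 10 genes and the lists were chosen with earlier results of these data known. Named genes are the 10, CHI3L1, 17 genes set by name and, in each list, the 4 largest absolute log2 folds at a mean of at least 1 CPM; 1 of the genes set by name is not reported here. Alternatives were pseudocounts of 0.5 and 10 CPM, a trimmed mean of log ratios, centring on genes of at least 50 CPM, no filter or a mean of at least 10 CPM, a 2-fold threshold, intervals wholly beyond 1.5-fold, coding genes, and the length and GC correction.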

Additional observations from a re-analysis of the deposited data

How the results depend on the processing

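No paired analysis was possible because each group has 1 library, and no library could be left out. LTBP1 was past 1.5-fold under each of the 10 alternatives (log2 fold 1.09 to 1.43) and CHI3L1 stayed lower (−1.61 to −1.36). No filter, a mean of at least 10 CPM and coding genes change only which genes are counted, so they could not move either fold. LTBP2 left the call, so that 1 of the 10 genes was higher, with centring (0.58), at a 2-fold threshold and with the length and GC correction (0.17). With centring SKIL was also called, 1 lower gene at −0.60. LTBP3 turned to −0.11 with the correction. The median of the 10 genes lay between 0.16 and 0.26.

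Centring shifts all genes by 0.10 and turned 3 medians, to −0.086 for all tested genes, −0.00033 for negative regulators and −0.079 for target genes. Without a filter the median of all genes was −0.0070, and with the correction that of negative regulators was −0.031. Over all genes, counts higher and lower were 1145 and 1988 in the main setting, 492 and 1011 at a pseudocount of 10 CPM, 686 and 2572 with centring, 153 and 654 at 2-fold, 530 and 1244 for whole intervals, and 728 and 969 with the correction. At 2-fold, 10 other pathway genes were higher and 1 lower. Each of these settings by its construction alters the folds or the rule.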

Other observations

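BMP and activin branches were measured beside the TGF-beta genes. Of 10 other tested ligand genes of the superfamily, 3 were at least 1.5-fold higher and 1 lower, with a median log2 fold of 0.35. Over all tested genes 7.73% were higher and 13.4% lower. Several of these ligand genes are low. At a mean of at least 10 CPM, 2 were higher and 1 lower, with a median of 0.13. With a pseudocount of 10 CPM, 2 were higher and 0 lower, with a median of 0.18. BMP4, the gene of a bone morphogenetic protein, stood at 21.2 CPM with control siRNA and 44.1 CPM with CHI3L1 siRNA, for a ratio of 2.08 (1.83 to 2.37). INHBE, the gene of an activin beta subunit made mainly in liver, stood at 7.08 and 18.3 CPM, and GDF5 at 4.68 and 9.13 CPM. AMH, the gene of anti-Müllerian hormone, was lower, at 15.2 and 9.64 CPM. After the length and GC correction these had log2 folds of 1.03 (BMP4), 1.20 (INHBE), 0.73 (GDF5) and −0.78 (AMH). By that measure 4 of these ligand genes were higher and 1 lower, beside 5.74% and 7.65% of coding genes. The further higher gene was GDF15 (0.45 before and 0.73 after, 66 and 118 reads), named after its values were seen. INHBA, the activin A subunit gene, was chosen after its values were seen as the ligand gene with the highest CPM, and had a log2 fold of −0.32 (291 and 233 CPM).

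The ID genes, textbook targets of BMP signalling, had ratios below 1. They were also chosen after their values were seen. ID1 stood at 123 and 74.9 CPM, for a ratio of 0.610 (0.569 to 0.653), and ID3 at 70.1 and 55.4 CPM, for a ratio of 0.790 (0.726 to 0.860). ID2 had a ratio of 0.850 (0.622 to 1.16), with an interval that holds 1. After the correction log2 folds were −0.23 for ID1, 0.13 for ID3 and 0.05 for ID2, so ID2 and ID3 changed sign. Their transcripts are shorter than those of the 10 genes, at 994 nt for ID1, 2041 nt for ID2 and 1251 nt for ID3.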
